A study of Mus musculus with 12 samples.

Results

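The 8 genes Slc17a6, Zic1, Zic4, Trpc4, Lhx8, Gbx1, Nkx2-1 and Ecel1, markers of neurons in the septum and pallidum, regions that border the nucleus accumbens, were followed in a microarray study of mouse accumbens after prenatal immune activation. They were chosen by symbol, and each was read from the row of the value table annotated with that 1 symbol, and from the row with the highest mean where there were several. All 8 genes had such a row, out of 18820 symbols on 21218 rows. In the text a level is the deposited log2 value, and a difference is the poly(I:C) mean minus the control mean on that scale.

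The study compared 6 poly(I:C) offspring with 6 control offspring. All were C57BL/6N mice aged 12 weeks. The mothers of the poly(I:C) offspring had been given poly(I:C), an artificial double-stranded RNA used in place of a virus to trigger an immune response, at 5 mg/kg into a vein on gestation day 17, and control mothers had received saline. Every animal had gone through behavioural testing before dissection, in both groups. The accumbens, core with shell, was cut by hand from 1-mm coronal slices between bregma 1.5 and 0.5 mm, a block whose medial and caudal neighbours are the septum and the ventral pallidum. Sex, litter and array batch were not given in the sources used here. The titles call the 6 samples of a group biological replicates, and offspring of 1 litter would not be independent animals.

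As background, the septum is a midline forebrain structure whose lateral part consists mostly of GABAergic projection neurons. The pallidum and the cholinergic neurons of the basal forebrain arise largely from the medial ganglionic eminence, an embryonic zone specified by Nkx2-1. The medium spiny neurons that make up most of the accumbens arise from the neighbouring lateral eminence. Zic1 and Zic4 encode zinc finger transcription factors of the developing midline forebrain and cerebellum. Trpc4 encodes a calcium-permeable cation channel that is abundant in lateral septum. Nkx2-1, Lhx8 and Gbx1 encode homeodomain transcription factors, and Lhx8 is needed for forebrain cholinergic neurons in mice. Slc17a6 encodes the vesicular glutamate transporter VGLUT2, the main one of thalamus and other subcortical regions. Ecel1 encodes a neuronal membrane protein of the endothelin-converting enzyme family.

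Genes of striatal neurons stood high on the arrays. Over the 12 arrays the 8 measured genes of striatal projection neurons averaged 9.12 ± 0.15 in poly(I:C) offspring and 9.02 ± 0.21 in controls (SD, n = 6 arrays each), against a median level of 5.47 over all rows. The dopamine receptor gene Drd1 averaged 8.62 ± 0.21 in poly(I:C) offspring and 8.45 ± 0.26 in controls, and Drd2 averaged 8.69 ± 0.19 in poly(I:C) offspring and 8.73 ± 0.23 in controls. The 9 measured cortical genes averaged 6.43 ± 0.28 in poly(I:C) offspring and 6.00 ± 0.39 in controls. Among these, Slc17a7 was as high as the dopamine receptor genes in poly(I:C) offspring, at 8.82 ± 0.70, and averaged 7.32 ± 1.49 in controls. Array medians ran from 4.78 to 4.85, pairwise correlations from 0.991 to 0.997, and 0 pairs of arrays held identical values. With 6 arrays a group, precision rests on that number.

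Zic1 and Trpc4 varied widely from array to array within each group, in step with each other, while their group means differed by little. Zic1 ran from 6.29 through a median of 7.75 to 8.24 in poly(I:C) offspring, and from 6.23 through 7.70 to 8.75 in controls. The highest array exceeded the lowest 3.85-fold in poly(I:C) offspring (2.14-fold without poly(I:C) 6) and 5.74-fold in controls (4.28-fold without control 1). Poly(I:C) 6 and control 1 lay lowest, poly(I:C) 5 and control 6 highest, and the groups overlapped over most of their range. Zic1 averaged 7.53 ± 0.70 in poly(I:C) offspring and 7.58 ± 1.01 in controls, a difference of -0.05 (limma adjusted p = 0.972, 95% interval -0.97 to 0.86). In bulk tissue of this kind, fewer cells of a type and less RNA per cell cannot be told apart. The group means accounted for 0.112% of the sum of squares of Zic1, where the median row had 8.80%. The wide interval, which is not adjusted for the number of rows, still holds group differences of almost 1 log2 unit either way.

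Trpc4 followed the same order of arrays at the ends. Its level ran from 5.60 through a median of 6.87 to 7.09 in poly(I:C) offspring, and from 5.93 through 6.82 to 7.42 in controls. Again poly(I:C) 6 and control 1 were lowest and poly(I:C) 5 and control 6 highest. The range was 2.81-fold in poly(I:C) offspring (1.76-fold without poly(I:C) 6) and 2.82-fold in controls (2.19-fold without control 1). The group means were 6.62 ± 0.58 in poly(I:C) offspring and 6.75 ± 0.59 in controls, a difference of -0.12 (limma adjusted p = 0.891, 95% interval -0.74 to 0.49).

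**Figure D1:**
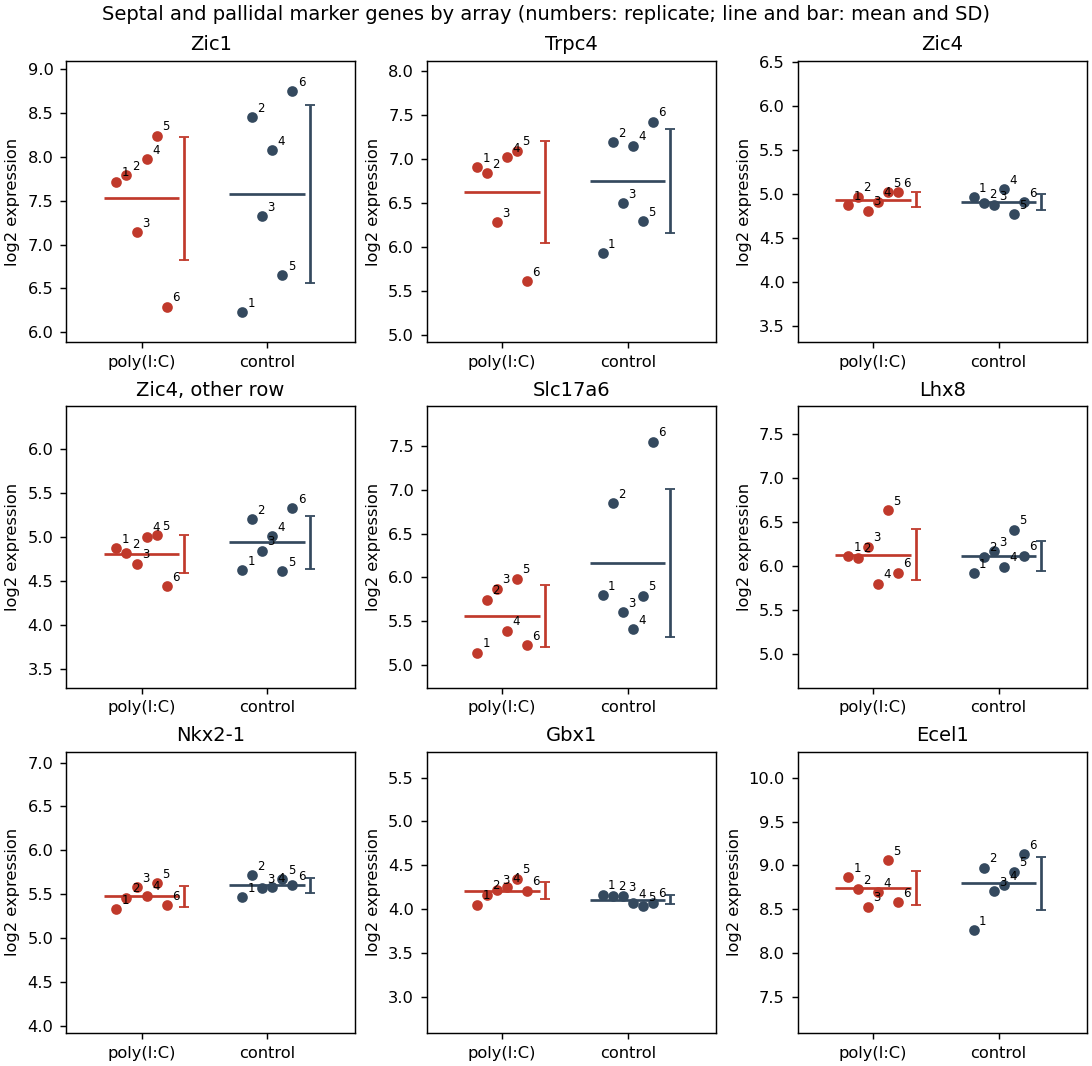
Log2 expression of the 8 marker genes by array, with poly(I:C) offspring left and controls right in each panel; points are arrays with their replicate number, the line is the group mean and the bar 1 SD (n = 6 arrays each), and every y axis spans the same number of log2 units. Zic1 and Trpc4 spread widely in both groups (Zic1 from 6.29 to 8.24 in poly(I:C) offspring and from 6.23 to 8.75 in controls), Slc17a6 is high in controls 2 and 6, and Gbx1, Nkx2-1 and the Zic4 row with the higher mean barely move.

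The spread of Zic1 was among the widest on the array. Its SD within groups, pooled over both, was 0.87, which ranked 6 of 21218 rows, where the median row had 0.0874. Slc17a6 ranked 24 with 0.64 and Trpc4 ranked 31 with 0.59. Ecel1 with 0.25 and Lhx8 with 0.24 ranked 498 and 614. Nkx2-1 (0.10), the main row of Zic4 (0.0892) and Gbx1 (0.0784) stood at ranks 7842, 10223 and 12717, near the middle of all rows. Thus, by the main rows, 5 of the 8 genes lay in the 10% of rows with the widest spread and 3 did not. The other Zic4 row, annotated with its RefSeq transcript, had 0.26 and ranked 452, so the place of Zic4 depends on the row. These ranks are a description, since the genes were chosen with earlier results known.

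**Figure D2:**
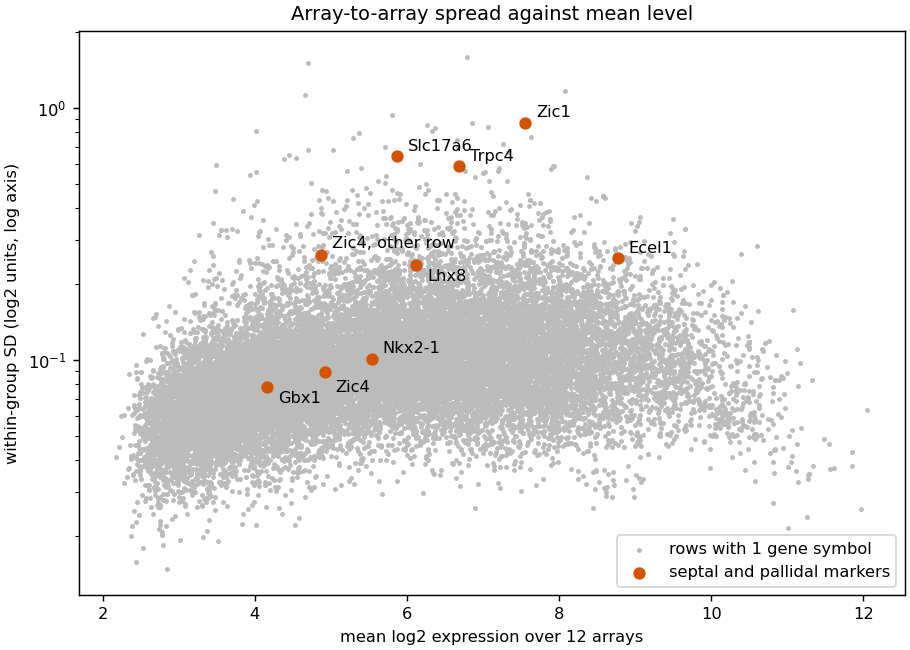
Within-group SD (log2 units, log axis) against mean log2 expression over 12 arrays for all 21218 rows with 1 gene symbol (grey) and for the marker rows (orange). Zic1 (SD 0.87), Slc17a6 (0.64) and Trpc4 (0.59) sit at the upper edge at their level, whereas Gbx1, Nkx2-1 and the main Zic4 row lie inside the cloud.

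Likeness between genes was measured as Pearson's r over the 12 arrays after each group's mean was removed, as a description without a test. The arrays share all that a tissue block contains, and 28 pairs of the 8 genes were compared. Zic1 and Trpc4 had r = 0.98 (Spearman's rho 0.98), with 0.99 within the 6 poly(I:C) arrays and 0.99 within the 6 control arrays. Without poly(I:C) 6 and control 1, the arrays farthest from the median of Zic1, r was 0.97. Of 21217 other rows Zic1 was the second most like Trpc4 and Trpc4 ranked 5 for Zic1. This was the only 1 of the 28 pairs with r over 0.9, and 3 pairs exceeded 0.7. The pairs use the main Zic4 row, and the other Zic4 row had r = 0.98 with Zic1 and 0.95 with Trpc4. The median over the pairs was 0.29, so the 8 genes did not vary as a single block.

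The rows most like Zic1 by the naming rule were Prkcd, which encodes protein kinase C delta and also stands in the diencephalic list (r = 0.99), its paralogue Zic2 (0.99) and the metalloproteinase inhibitor gene Timp2 (0.98). For Trpc4 they were Dlx1, a homeobox gene of forebrain GABAergic neurons (0.98), Zic1 and Prkcd (0.97). Rows with r over 0.9 numbered 57 for Zic1 and 59 for Trpc4. In levels, Prkcd averaged 6.60 ± 0.57 in poly(I:C) offspring and 6.74 ± 0.81 in controls, and Zic2 averaged 6.26 ± 0.62 in poly(I:C) offspring and 6.47 ± 1.00 in controls. Neither difference passed the test (limma adjusted p = 0.903 for Prkcd and 0.865 for Zic2).

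**Figure D3:**
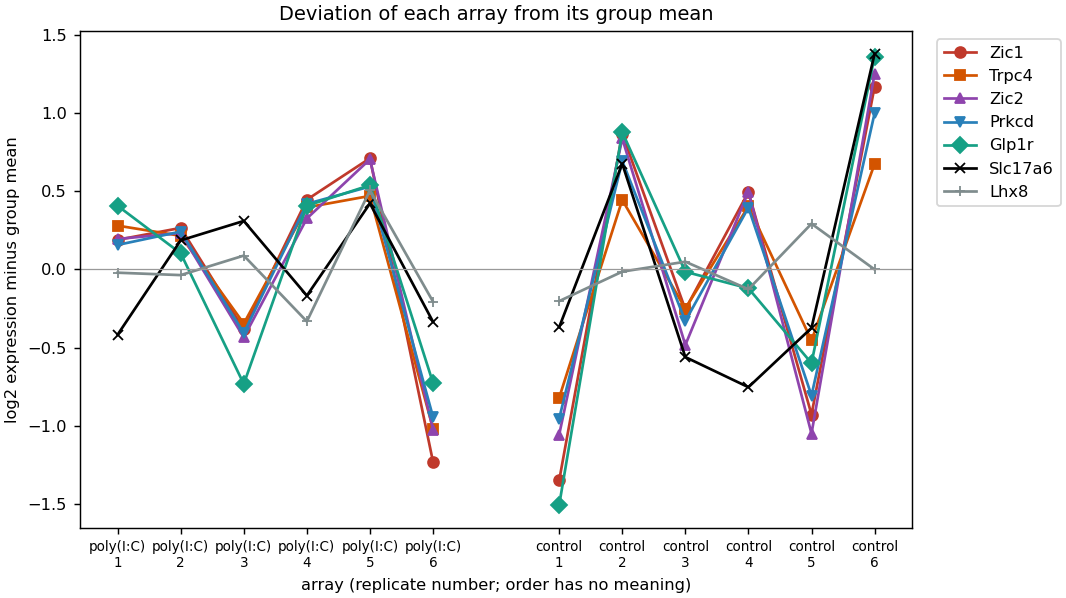
Deviation of each array from its group mean (log2 expression, y axis) for 7 genes, with the 6 poly(I:C) arrays left and the 6 control arrays right; the connecting lines only guide the eye, since replicates have no order. Zic1, Trpc4, Zic2, Prkcd and Glp1r dip together in poly(I:C) 3 and 6 and in controls 1 and 5. These genes rise together in poly(I:C) 5 and controls 2 and 6. Slc17a6 and Lhx8 follow only in part, low in poly(I:C) 6 and control 1 and high in poly(I:C) 5. Unlike the others, both lie above their group mean in poly(I:C) 3.

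Zic4 gave different pictures on its 2 rows. The row with the higher mean, used by rule, ran from 4.81 through a median of 4.94 to 5.02 in poly(I:C) offspring and from 4.77 through 4.90 to 5.05 in controls, and its r with Zic1 was 0.15. Its platform annotation names no RefSeq transcript, unlike that of the rows of the other 7 genes. The other row, annotated with the RefSeq transcript of Zic4, ran from 4.44 through a median of 4.84 to 5.02 in poly(I:C) offspring and from 4.61 through 4.93 to 5.33 in controls. That row had r = 0.98 with Zic1 and 0.95 with Trpc4, but only 0.13 with the first Zic4 row. The differences were 0.02 on the main row (limma adjusted p = 0.873) and -0.13 on the other (0.691), and neither passed. Both rows lay below the median level of 5.47, and the groups overlapped on each.

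Zic1 and Zic4 lie head to head on mouse chromosome 9, with 3204 bases between the RefSeq starts used here. The windows of 250 bases before the start are shown for Zic1 and Trpc4, which moved together, for Zic4, the neighbour of Zic1, and for Ecel1, which holds the same motif as Zic4. They come from RefSeq promoters of build GRCm38.p6, in which 7 of the 8 genes had an entry. Capitals mark a match to CAAGTG, a core bound by factors of the Nkx2 class, on either strand.
Zic1 (GRCm38.p6, chr9:91365769-91366018, - strand): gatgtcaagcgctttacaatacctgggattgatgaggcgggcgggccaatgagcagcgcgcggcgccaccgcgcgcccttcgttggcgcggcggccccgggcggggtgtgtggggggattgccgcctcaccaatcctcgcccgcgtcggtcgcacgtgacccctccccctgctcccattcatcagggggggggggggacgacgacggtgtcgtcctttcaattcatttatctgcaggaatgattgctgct
Trpc4 (GRCm38.p6, chr3:54155807-54156056, + strand): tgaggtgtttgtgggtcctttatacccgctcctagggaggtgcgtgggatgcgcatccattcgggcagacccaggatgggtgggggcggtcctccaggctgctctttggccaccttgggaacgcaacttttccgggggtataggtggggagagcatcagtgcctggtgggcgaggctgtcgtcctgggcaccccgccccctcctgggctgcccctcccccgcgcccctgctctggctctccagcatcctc
Zic4 (GRCm38.p6, chr9:91368722-91368971, + strand): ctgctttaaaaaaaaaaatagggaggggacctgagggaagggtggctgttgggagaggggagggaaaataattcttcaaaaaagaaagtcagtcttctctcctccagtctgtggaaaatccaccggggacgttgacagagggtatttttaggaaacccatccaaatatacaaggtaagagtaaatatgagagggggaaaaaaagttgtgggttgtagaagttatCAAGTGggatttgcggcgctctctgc
Ecel1 (GRCm38.p6, chr1:87156357-87156606, - strand): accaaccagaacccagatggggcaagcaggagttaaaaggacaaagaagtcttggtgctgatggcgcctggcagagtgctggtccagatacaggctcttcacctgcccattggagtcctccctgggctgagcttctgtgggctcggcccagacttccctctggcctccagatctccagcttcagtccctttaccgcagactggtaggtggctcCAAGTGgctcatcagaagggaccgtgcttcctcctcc

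The Zic1 and Trpc4 windows had a GC content of 66.0% and 66.4%, above the median of 52.4% over 32851 promoter windows, and held 27 and 12 CG dinucleotides against a median of 6. The Zic4 window had 44.4% GC and 4 CG dinucleotides. The motif CAAGTG (the core above) was found in the windows of Zic4 and Ecel1, and in 11.6% of all windows. A second motif, the homeodomain core TAATTA, was found once on either strand, in the window of the second listed start of Slc17a6, and in 4.84% of all windows. The last motif, the Zic core CAGCAGG, was found on neither strand of any of the 8 windows of the members and in 8.44% of all windows. The Zic1 and Trpc4 windows held no match to any of the 3 motifs. A match is a description of letters and not of binding.

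Slc17a6 was set apart by 2 control arrays. Its level ran from 5.15 through a median of 5.57 to 5.99 in poly(I:C) offspring, and from 5.41 through 5.80 to 7.55 in controls. Controls 2 and 6 stood at 6.84 and 7.55, above all other arrays, and the remaining 4 controls lay within the poly(I:C) range. Slc17a6 averaged 5.56 ± 0.35 in poly(I:C) offspring and 6.17 ± 0.84 in controls, a difference of -0.60 (limma adjusted p = 0.404, 95% interval -1.28 to 0.07). Without controls 2 and 6 the difference was -0.09 (limma adjusted p = 0.848). The SD in poly(I:C) offspring was 0.42 times that in controls, and 0.64 times without control 6. A permutation test of the absolute deviations from the group medians over all 924 assignments did not separate the groups (p = 0.457, two-sided).

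The array pattern of Slc17a6 only partly matched that of Zic1, with r = 0.59 over 12 arrays and 0.03 without controls 2 and 6. Control 4, among the high arrays for Zic1 at 8.07, was the lowest control for Slc17a6 at 5.41. By the naming rule the rows most like Slc17a6, at ranks 4, 7 and 10 among all rows, were Dusp16, Gatm and Gab1. The phosphatase gene Dusp16 had r = 0.93, Gatm, which encodes an enzyme of creatine synthesis, 0.92, and the adaptor gene Gab1 0.91. Without controls 2 and 6 the values were 0.76, 0.64 and 0.54, so the likeness rested in part on those arrays. Of 11 measured diencephalic genes 3 had r over 0.8 with Slc17a6, the thalamic transcription factor gene Tcf7l2 (0.90), Lhx9 (0.86) and Shox2 (0.81). Without controls 2 and 6 these stood at 0.41, 0.06 and -0.15, so none of the 3 kept that likeness. Lhx9 and Shox2 were named after their values were seen.

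**Figure D4:**
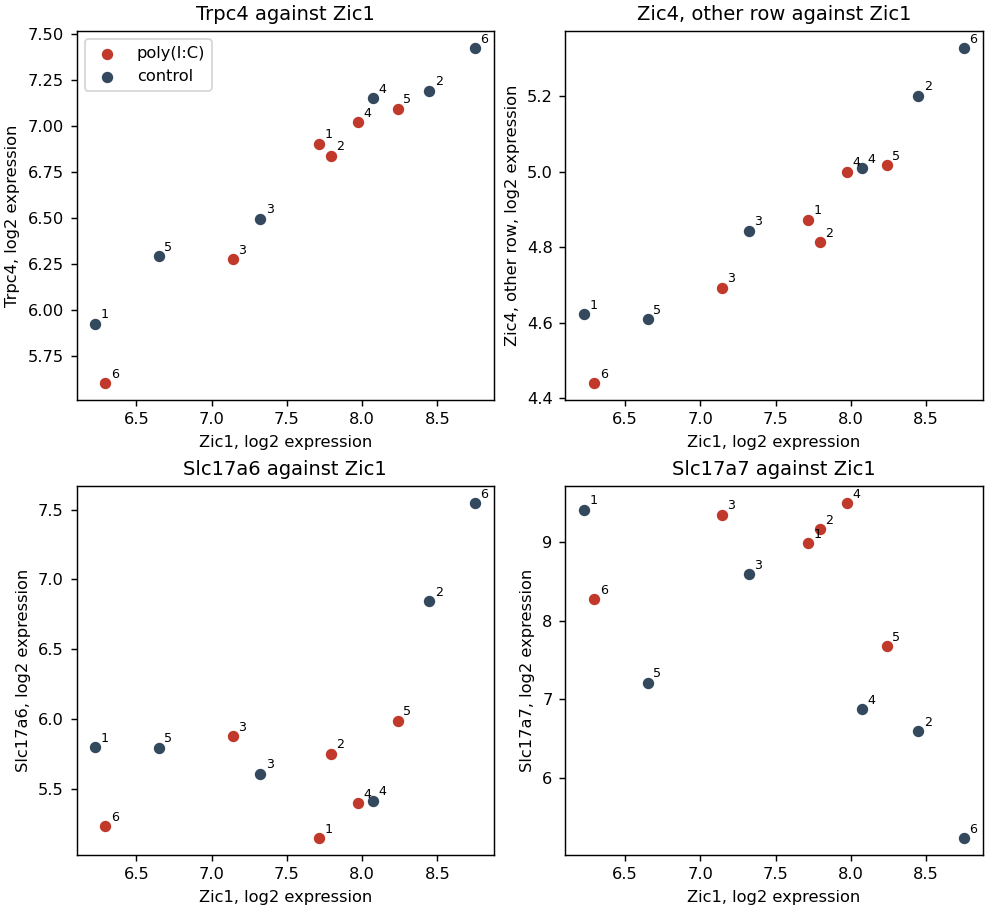
Log2 expression of Trpc4, the other Zic4 row, Slc17a6 and the cortical gene Slc17a7 (y axes) against Zic1 (x axes), 1 point per array with its replicate number, red for poly(I:C) offspring and dark blue for controls. Trpc4 and the other Zic4 row follow Zic1 in both groups (r = 0.98 each), Slc17a6 leaves the common range in controls 2 and 6 alone, and Slc17a7 is lowest in control 6.

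The homeodomain genes moved within narrower limits. Lhx8 ran from 5.79 through a median of 6.10 to 6.63 in poly(I:C) offspring, and from 5.91 through 6.11 to 6.41 in controls. Poly(I:C) 5 and control 5 were highest, and the poly(I:C) range enclosed that of controls. The means were 6.13 ± 0.29 in poly(I:C) offspring and 6.12 ± 0.17 in controls, a difference of 0.01 (limma adjusted p = 0.981, 95% interval -0.24 to 0.27). By the naming rule the rows most like Lhx8 were Dgkk (r = 0.93), Lhx6 (0.90) and Cbln4 (0.88). Dgkk encodes a diacylglycerol kinase, and Cbln4 a secreted synapse organiser. Lhx6 is a related LIM homeobox gene of the medial eminence lineage. The cholinergic genes Slc5a7 (choline transporter) and Chat (choline acetyltransferase), named after their values were seen, had r = 0.72 and 0.71 with Lhx8. The r of Lhx8 with Zic1 was 0.16, and with Nkx2-1 it was 0.64.

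Nkx2-1 lay near the median level of the array, from 5.33 through a median of 5.47 to 5.63 in poly(I:C) offspring and from 5.47 through 5.59 to 5.72 in controls. It averaged 5.48 ± 0.12 in poly(I:C) offspring and 5.60 ± 0.09 in controls, a difference of -0.13 (limma unadjusted p = 0.0401, adjusted p = 0.323, 95% interval -0.25 to -0.01). Gbx1 was the dimmest of the 8, from 4.05 through a median of 4.22 to 4.35 in poly(I:C) offspring and from 4.04 through 4.11 to 4.17 in controls. It averaged 4.21 ± 0.10 in poly(I:C) offspring and 4.11 ± 0.05 in controls, a difference of 0.10 (limma unadjusted p = 0.0489, adjusted p = 0.345, 95% interval 0.00 to 0.20). The groups overlapped for both genes. Under the naming rule, which leaves out dim and unnamed rows, those most like Nkx2-1 were Rbmx2 (r = 0.91), Tmem59 (0.88) and Derl1 (0.87). For Gbx1 they were Rtraf (0.82), Zfp771 (0.79) and Lrrc14 (0.77), only at ranks 20, 34 and 44 among all rows. Without poly(I:C) 5 and control 5 these stood at 0.73, 0.55 and 0.57. For the main Zic4 row they were Zfp36l2 (0.86), Mrpl52 (0.85) and Rpl36 (0.82), at ranks 4, 7 and 12. Without controls 4 and 5 these stood at 0.75, 0.73 and 0.65.

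Ecel1 was the brightest of the 8 genes. It ran from 8.53 through a median of 8.71 to 9.06 in poly(I:C) offspring, and from 8.26 through 8.85 to 9.13 in controls. Control 1 was lowest and control 6 highest, as for Zic1, and the groups overlapped. The means were 8.74 ± 0.19 in poly(I:C) offspring and 8.79 ± 0.30 in controls, a difference of -0.05 (limma adjusted p = 0.899, 95% interval -0.32 to 0.22). Ecel1 had r = 0.75 with Zic1, 0.74 with Trpc4 and 0.55 with Lhx8. Without controls 1 and 6 these values were 0.53, 0.58 and 0.61. Most like Ecel1 by the naming rule were Insyn2b, the GABA-A receptor subunit gene Gabrg1 and the adaptor gene Grb10, each with r = 0.96.

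Over the 8 genes, 3 had a higher mean and 5 a lower mean in poly(I:C) offspring, where 50.9% of all rows were higher. Of the 8 genes, 0 passed the adjusted threshold of 0.05 in limma, where 0.0613% of all rows did. An unadjusted p under 0.05 was reached by 2 of the 8 genes (Gbx1 higher, Nkx2-1 lower), where 14.4% of all rows did (7.83% higher, 6.57% lower), so the shares of 1 gene in 8 each way are read as no result about these genes. Groups without overlap were seen for 0 of the 8 genes, against 1.13% of all rows. The median difference of the 8 genes was -0.05, and that of all rows was 0.00. The test of spread gave 0 of 8 genes an unadjusted p under 0.05, where 6.36% of rows did, and the lowest among the 8 genes was 0.210 (Zic1). It called 0 rows after adjustment over all 21218.

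The genes of the bordering tissues did not divide cleanly by marker. With Zic1, r was over 0.8 for 5 of 9 other septal genes, 4 of 7 ependymal genes, 2 of 11 diencephalic genes, 1 of 10 choroid plexus genes and 0 of 14 other pallidal and basal forebrain genes. The septal genes were Zic2, Zic5 (0.96), the receptor genes Glp1r (0.93) and Crhr2 (0.87), and the vasopressin receptor gene Avpr1a (0.82), whereas Sst stood at -0.82. The diencephalic genes were Prkcd and Calb2 (0.89), and the choroid plexus gene was Otx2 (0.86). Without poly(I:C) 6 and control 1, 4 of the 5 septal genes and all 4 ependymal genes were still over 0.8, Avpr1a was at 0.79 and Calb2 at 0.77. Pallidal and basal forebrain genes over 0.8 were spread over several markers. They were Pvalb (0.88) and Gbx2 (0.81) for Slc17a6, and Lhx6 for Lhx8. The rest were Sox6 (0.81) for Nkx2-1, Isl1 (0.88) for Ecel1 and Gbx2 (0.83) for the other Zic4 row. Without controls 2 and 6, Pvalb stood at 0.52 and Gbx2 at 0.12 with Slc17a6. Without the 2 arrays farthest from the median of each marker, Lhx6 stood at 0.88 and Isl1 at 0.85. By the same measure Sox6 stood at 0.796, and Gbx2 at 0.71 with the other Zic4 row. Apart from Zic2, Crhr2, Prkcd, Lhx6 and Gbx2, the genes named here were picked after their r was seen. The medians over the 8 striatal projection genes were -0.51 with Zic1 and -0.59 with Slc17a6, the second -0.28 without controls 2 and 6. Over the 9 cortical genes the median with Ecel1 was -0.63, and -0.41 without controls 1 and 6.

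**Figure D5:**
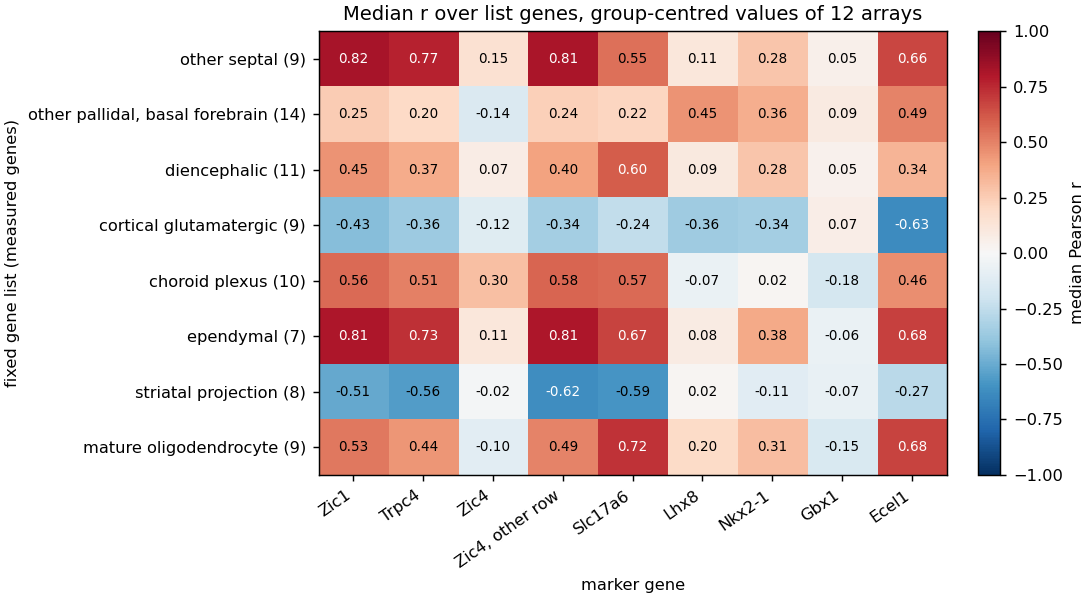
Median Pearson r (colour and number, from -1 to 1) between each marker row (x axis) and the measured genes of 8 fixed lists (y axis, number of genes in brackets), over group-centred values of 12 arrays. Zic1, Trpc4 and the other Zic4 row are most like the other septal and ependymal genes, Slc17a6 the mature oligodendrocyte, ependymal and diencephalic genes (medians of 0.16, -0.19 and 0.21 without controls 2 and 6), and Lhx8 the other pallidal and basal forebrain genes.

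Levels of these tissues differed between arrays beside the markers. Choroid plexus genes, 10 of 11 measured, averaged 4.39 to 4.61 over poly(I:C) arrays and 4.57 to 6.87 over control arrays. Their defining gene Ttr (transthyretin) stood at 8.68, 10.48 and 10.88 in controls 2, 4 and 6, which were also the 3 controls with the highest Zic1 levels (8.45, 8.07 and 8.75). In poly(I:C) 4 and 5, Zic1 stood at 7.97 and 8.24, while Ttr was at 5.20 and 5.13. Cortical genes, 9 of 10 measured, averaged 6.03 to 6.76 over poly(I:C) arrays and 5.58 to 6.65 over control arrays. Their member Slc17a7 (VGLUT1) was at 5.23 in control 6, its lowest array, and at 9.41 in control 1. Mature oligodendrocyte genes, 9 of 10 measured, averaged 7.68 to 7.85 over poly(I:C) arrays and 7.83 to 8.43 over control arrays. Diencephalic genes, 11 of 12 measured, averaged 5.11 to 5.42 over poly(I:C) arrays and 5.29 to 5.92 over control arrays. Ependymal genes, 7 of 8 measured, averaged 4.56 to 4.69 over poly(I:C) arrays and 4.57 to 5.20 over control arrays. Each of these 3 lists thus reached higher in controls, and their median r with Slc17a6 was 0.72, 0.60 and 0.67. Without controls 2 and 6 these medians were 0.16, 0.21 and -0.19. The part of these tissues in the levels of the markers was not tested.

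Between the groups, the surrounding lists gave these counts in limma. The other septal list had 0 of 9 genes past the adjusted threshold, with Nts at 0.19, Prokr2 at -0.23 and Crhr2 at -0.16 as differences. The other pallidal and basal forebrain list had 0 of 14, with Foxp2 at 0.28, Etv1 at -0.24 and Gbx2 at -0.18. The diencephalic list had 0 of 11, with Tcf7l2 at -0.42, Barhl2 at -0.13 and Lef1 at -0.16. The cortical list had 0 of 9 (Rorb 0.26, Slc17a7 1.51, Fezf2 0.28), the choroid plexus list 0 of 10 (Ttr -2.82, Folr1 -0.43, Slc4a5 -0.43) and the ependymal list 0 of 7 (Tekt1 -0.19, Tmem212 -0.32, Cfap126 -0.39). The striatal list had 0 of 8 (Pdyn 0.32, Tac1 0.24, Drd1 0.17, Drd2 -0.04). In the mature oligodendrocyte list 1 of 9 genes passed, the myelin gene Mobp, which fell (-0.51, limma adjusted p = 0.0411, against 0.0613% of all rows called), beside Opalin at -0.57 and Mal at -0.40, which did not pass. With poly(I:C) 2, 3, 4 or 5 or control 4, 5 or 6 left out, 0 rows were called, Mobp among those lost. Over all rows, 50.9% had a higher mean in poly(I:C) offspring. Lower means were found for 9 of 9 mature oligodendrocyte genes, 10 of 10 choroid plexus genes, 7 of 7 ependymal genes and 10 of 11 diencephalic genes. So were 7 of 9 other septal genes, 7 of 14 other pallidal genes, 3 of 8 striatal genes and 2 of 9 cortical genes. Genes of a list can move together on a few arrays. Choroid plexus genes averaged 6.01 and 6.87 in controls 4 and 6. In controls 1, 3 and 5 they averaged 4.57, 4.61 and 4.62, against 4.39 to 4.61 over poly(I:C) arrays. Lower with an unadjusted p under 0.05 in limma, as 6.57% of all rows were, were 8 of the oligodendrocyte, 4 of the ependymal, 3 of the diencephalic, 2 of the choroid plexus, 2 of the other pallidal and 1 of the other septal genes. Higher at that threshold, as 7.83% of all rows were, were 5 of the cortical genes and 1 gene each of the striatal, other septal and other pallidal lists. The median difference was -0.13 for the other septal list, 0.01 for the other pallidal list and -0.14 for the diencephalic list.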

How the data were processed

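Nucleus accumbens RNA of 6 poly(I:C) and 6 control offspring, 250 ng each, was hybridised to Affymetrix Mouse Gene 1.1 ST arrays. The authors deposited 1 table of log2 values for 35556 rows, made with RMA and Partek 6.6 per the submitters' processing notes. RMA brings arrays to 1 distribution and compresses low values. The sources used here give neither its settings nor the genome build of the array. The platform annotation gave 1 symbol for 21218 rows, several for 1881 and none for 12457.

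Every row with 1 symbol was fitted with limma 3.58.1 in R 4.3.3 (group as the only term, 10 residual and 3.94 prior degrees of freedom, two-sided). Benjamini-Hochberg adjustment ran over all 21218 rows, with a threshold of 0.05 and no filter. Likeness was Pearson's r of group-centred values. Named rows are the 3 most like each gene, leaving out unnamed gene models, small RNAs, chemoreceptors and rows under the median level of 5.47, and the 3 genes of each list with the smallest p, besides Slc17a7, Ttr, Drd1, Drd2 and Tcf7l2. Outside this rule, Zic5, Glp1r, Avpr1a, Sst, Calb2, Otx2, Pvalb, Sox6, Isl1, Lhx9, Shox2, Slc5a7, Chat and Slc18a3 were named from the lists. They were picked after their r was seen. The genes and lists were chosen with earlier results of these data known. The limma and spread steps were tested on simulated data. Deviations of samples with the same replicate number had r from -0.20 to 0.27. Only poly(I:C) 2 was most like the control of its own number, so the numbers were not used as pairs.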

Additional observations from a re-analysis of the deposited data

Results flagged for a closer look

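In 112 groups of 6 arrays, 1 array lay far from the other 5 in 6 cases. Chance gives such a gap in about 1 of 20 groups, so the count is near the share that chance gives. None of the 6 was a septal or pallidal marker gene. Control 1 was low for Grb10, the gene whose pattern was among the closest to Ecel1, at 6.79 with the next control at 7.18. Poly(I:C) 6 was high for Ttr at 6.80, with the next poly(I:C) array at 5.51, and for Pdyn at 7.23, with the next at 6.84. Control 6 was low for Tac1 at 8.73, with the next control at 9.34. Poly(I:C) 3 was high for Lef1 at 5.69, with the next at 5.51, and low for Opalin at 6.41, with the next at 6.47.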

How the results depend on the processing

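No septal or pallidal marker gene passed the adjusted threshold under the other limma fits that tested it (Gbx1 and the main Zic4 row were not tested at or above the median level). The number of rows called was 13 in the reported fit, 38 after quantile normalization, 20 for rows at or above the median level, 140 with array weights, 181 without control 1 and poly(I:C) 6 together, and 0 with the replicate block (2801 at an unadjusted p under 0.05), without controls 4 and 6 (1768) and without controls 2 and 6 (2551). It was 0 to 84 with 1 array left out, namely 28 without poly(I:C) 1, 39 without poly(I:C) 6, 54 without control 1, 6 without control 2, 84 without control 3 and 0 without each of the other 7. The 2 sets without controls 2 and 6 and without control 1 and poly(I:C) 6 were chosen after seeing the data.

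Small differences changed sign. Zic1 was at 0.00115 with array weights, 0.36 without controls 4 and 6 and 0.46 without controls 2 and 6. Trpc4 was at 0.15 and 0.16 in those last 2 sets, and Ecel1 at 0.0263 and 0.0760. Lhx8 was at -0.0185 with array weights and -0.0211 without controls 4 and 6. The other Zic4 row gave -0.13 against 0.02 on the main row, and 0.0350 without controls 2 and 6. With 1 array left out, the difference ran from -0.32 to 0.19 for Zic1, -0.29 to 0.0803 for Trpc4, -0.16 to 0.0147 for Ecel1, -0.0908 to 0.0770 for Lhx8 and -0.00336 to 0.0529 for Zic4. The log2 ratio of SDs then ran from -1.39 to -0.65 for Slc17a6 (-0.65 without control 6), -1.32 to -0.28 for Zic1 (-1.32 without poly(I:C) 6), -0.51 to 0.28 for Zic4, -0.88 to 0.24 for Trpc4, -0.0326 to 1.49 for Lhx8 and -1.21 to 0.23 for Ecel1, and for Zic4 it was 0.24 after quantile normalization. Slc17a6 stayed below 0 in all settings (-0.76 to -0.09), Nkx2-1 below 0 (-0.16 to -0.10) and Gbx1 above 0 (0.07 to 0.13). By the exact permutation test the unadjusted p was 0.0563 for Gbx1 and 0.0649 for Nkx2-1. The cause of these changes was not tested. Values near or under the median level, as for Gbx1 and Zic4, limit what the array resolves.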
